A study of Caenorhabditis elegans with 12 samples.

Results

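The difference of the fluvastatin response between genotypes was measured in whole Caenorhabditis elegans, as the response of a dlk-1 mutant minus the response of wild type. It was taken within each replicate number, on the log2 scale, from all 12 libraries of the 12 in the series. The 4 groups were wild type and dlk-1 mutant animals, each kept for 9 h from the L4 stage on plates holding 0 or 1 mM fluvastatin, with 3 libraries a group. A difference below 0 means a lower response in the mutant and a difference above 0 a higher one. The sample titles call the mutant a p38 knockout while the growth protocol names dlk-1, and the sources used here name no allele. The same mutation was present in every mutant library, with and without the drug. Whether the replicates came from different cultures is not stated in the labels. The p-values therefore measure only how much these libraries varied, which may be technical variation.

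Fluvastatin is a statin, which blocks HMG-CoA reductase and so the mevalonate pathway that supplies prenyl groups for proteins. DLK-1 is a MAP kinase kinase kinase, best known in C. elegans neurons for its part in axon regeneration and synapse formation, that acts through the kinases MKK-4 and PMK-3 on the transcription factor CEBP-1. A separate p38 cascade, running from TIR-1 through NSY-1 and SEK-1 to PMK-1, controls secreted immune effectors in the intestine.

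The libraries held 9370975 to 12438131 reads with 1 transcript model per gene, and 15529 genes were tested. The first principal component (58.5% of the variance) set the libraries of replicate 2 apart from the others, and the second (14.4%) parted fluvastatin from control. dlk-1 itself overlaps mec-19, whose reads this kit cannot separate by strand, and was lower in the mutant but present. Its log2 level in the mutant was -0.80 against wild type without the drug (adjusted p = 0.011) and -0.69 with it (adjusted p = 0.0218), both from limma. In these whole-animal samples, fewer cells of a type and less RNA per cell cannot be told apart.

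Across the genome 0 of 15529 genes (0.0%) passed the threshold for a difference (limma with the replicate number as a block, adjusted p under 0.05). An unadjusted p under 0.05 was reached by 386 genes (2.49%), with 220 higher (1.42%) and 166 lower (1.07%) in the mutant. With no difference in any gene about 5% would be expected under that threshold, so the 2.49% was not an excess. Without the block 0 genes passed and 29 had an unadjusted p under 0.05, and edgeR with the block gave 0 and 349. DESeq2 and limma on the 3 within-replicate differences each called 1 gene, the infection response gene irg-5, at adjusted p of 0.000457 and 0.00162. The difference had one sign in replicates 1, 2 and 3 for 3608 genes (23.2%). It was below 0 for 8245 genes (53.1%) and above 0 for 7284 (46.9%), with a median of -0.01, and these shares are the background for the counts of each list.

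The precision depended on the level of the gene. The median half-width of the 95% interval of a difference was 0.18 log2 units for genes with a mean of at least 1000 normalised reads and 0.25 for means from 200 to 1000. It was 0.46 for means from 50 to 200 and 0.89 for means from 10 to 50. For 11715 genes (75.4%) the interval lay wholly between -1 and 1, so a difference of 2-fold or more in either direction was outside their interval. Among the 3599 genes with means from 10 to 50, only 30.4% had so narrow an interval.

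Responses themselves were numerous in both genotypes. With the block 1091 genes passed in wild type (7.03%), 586 up (3.77%) and 505 down (3.25%). In the mutant 980 passed (6.31%), 500 up (3.22%) and 480 down (3.09%). Without the libraries of replicate 3 these totals were 598 and 563. Both lists held 770 genes, all with the same sign, which is 70.6% of the wild-type list and 78.6% of the mutant list. Of the 321 genes that passed in wild type alone, 312 had the same direction in the mutant, and of the 210 that passed in the mutant alone, 204 had the same direction in wild type. The 2 responses share no library, but 0 genes had both a wild-type call and a called difference.

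To describe responding genes without using the difference to choose them, genes were taken by the average of both responses, a contrast that is orthogonal to the difference in this balanced layout. The averaged response passed for 1947 genes (12.5%), 923 raised (5.94%) and 1024 lowered (6.59%) by fluvastatin (1162 genes without the libraries of replicate 3). Genes whose responses run in opposite directions tend to cancel in that average and are missed by this choice. Among the 923 raised genes the response was smaller in the mutant for 591 (64.03%), with a median difference of -0.06, where 53.1% of all genes lay below 0. The share was 56.6, 51.2 and 66.7% in replicates 1, 2 and 3, and it was 54.9% without the libraries of replicate 3 and 54.2% without mutant control replicate 3. Among the 1024 lowered genes it was smaller for 508 (49.6%), with shares of 37.0, 54.1 and 65.7% in the 3 replicates. Of the 270 genes raised at least 2-fold, 185 had the smaller response in the mutant (68.5%) and the median difference was -0.13. Of the 137 genes lowered at least 2-fold, 88 did (64.2%), with a median of -0.17 on a scale on which values below 0 mark the smaller response in the mutant. For the 63 genes raised at least 8-fold the median difference was -0.24 but came to 0.15, -0.03 and -0.51 in replicates 1, 2 and 3, so the replicates did not share its sign.

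**Figure D1:**
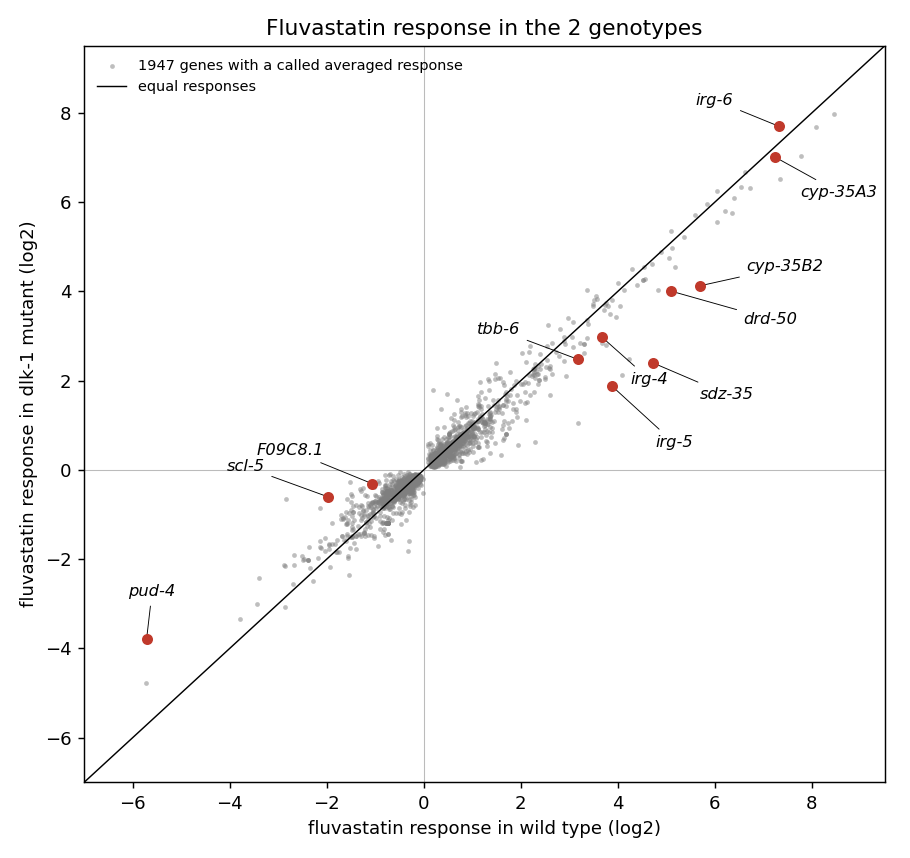
Fluvastatin response (log2, 1 mM against 0 mM) in wild type on the horizontal axis and in the dlk-1 mutant on the vertical axis, for the 1947 genes whose averaged response passed; red points are named genes and the line marks equal responses. Points follow the line over the whole range, with irg-5 and sdz-35 below it and scl-5 and pud-4 above it.

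irg-5 (F35E12.5), a gene of the infection response that PMK-1 controls, had the largest negative difference among genes with a mean of at least 20 normalised reads and one sign in all replicates. In replicates 1, 2 and 3 of the untreated wild type it stood at 227, 69.6 and 155 normalised reads, against 1030, 366 and 1188 in the untreated mutant. Treated wild type held 2210, 1485 and 2416, and treated mutants held 3352, 1842 and 3647. The control libraries of the mutant all lay above those of wild type. The drug-treated libraries of the genotypes overlapped, although within each replicate number the mutant was the higher, and both genotypes had every treated library above every control. The wild-type response was 3.87 log2 units and the mutant one 1.88, a difference of -1.99 ± 0.33 (SE, n = 3 per group; 95% interval -2.78 to -1.21, unadjusted p = 0.000544, adjusted p = 1.00 in limma). The difference was -1.58, -2.06 and -2.33 in the 3 replicates, and -1.77 to -2.23 when libraries were left out. Between genotypes the level differed by 2.49 log2 units without the drug (adjusted p = 0.0252) and by 0.50 with it (adjusted p = 0.676). These 2 contrasts share libraries with the difference.

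irg-5 lies on chromosome V (13737010 to 13738474, minus strand, WBcel235) in a run of genes with names from the same clone, of which 8 were tested. The difference was below 0 in 7 of the 8 (53.1% over all genes), and 5 of the 7 had an unadjusted p under 0.05 (1.07% over all genes for lower differences). Without the block only irg-5 did, so that the 5 became 1. These genes were chosen after their values were seen, and irg-5 and F35E12.6 are in both counts. The counts therefore describe the run and are not separate support. F35E12.6 (13734309 to 13736247), the neighbour of irg-5, had the lowest p of all genes with a mean of at least 20. Wild-type controls held 1266, 1037 and 1256 and mutant controls 1887, 1325 and 1782. Treated wild type held 2046, 1600 and 1869 and treated mutants 2135, 1652 and 1989. As for irg-5, the control libraries of the mutant lay above those of wild type and the treated libraries overlapped, with the mutant the higher in each replicate. The wild-type response was 0.63 and the mutant one 0.22, a difference of -0.41 ± 0.08 (unadjusted p = 0.000125), and the control levels differed by 0.48 (adjusted p = 0.00526).

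dct-17, which encodes a CUB-like domain protein, went from 97.4, 71.4 and 101 to 361, 191 and 391.6 in wild type. In the mutant it went from 191, 131 and 145 to 427, 198 and 388, so that the mutant controls again lay above the wild-type controls. Its difference was -0.69 ± 0.22 (unadjusted p = 0.00732), and that of cld-9 (F35E12.8) was -0.44 ± 0.19. F35E12.10 had a difference of -0.27 ± 0.10 and F35E12.4 one of 0.23. dct-17, cld-9 and F35E12.10 had smaller gaps than irg-5 between the control groups, at 0.79, 0.08 and 0.17 log2 units, and none of these gaps passed.

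**Figure D2:**
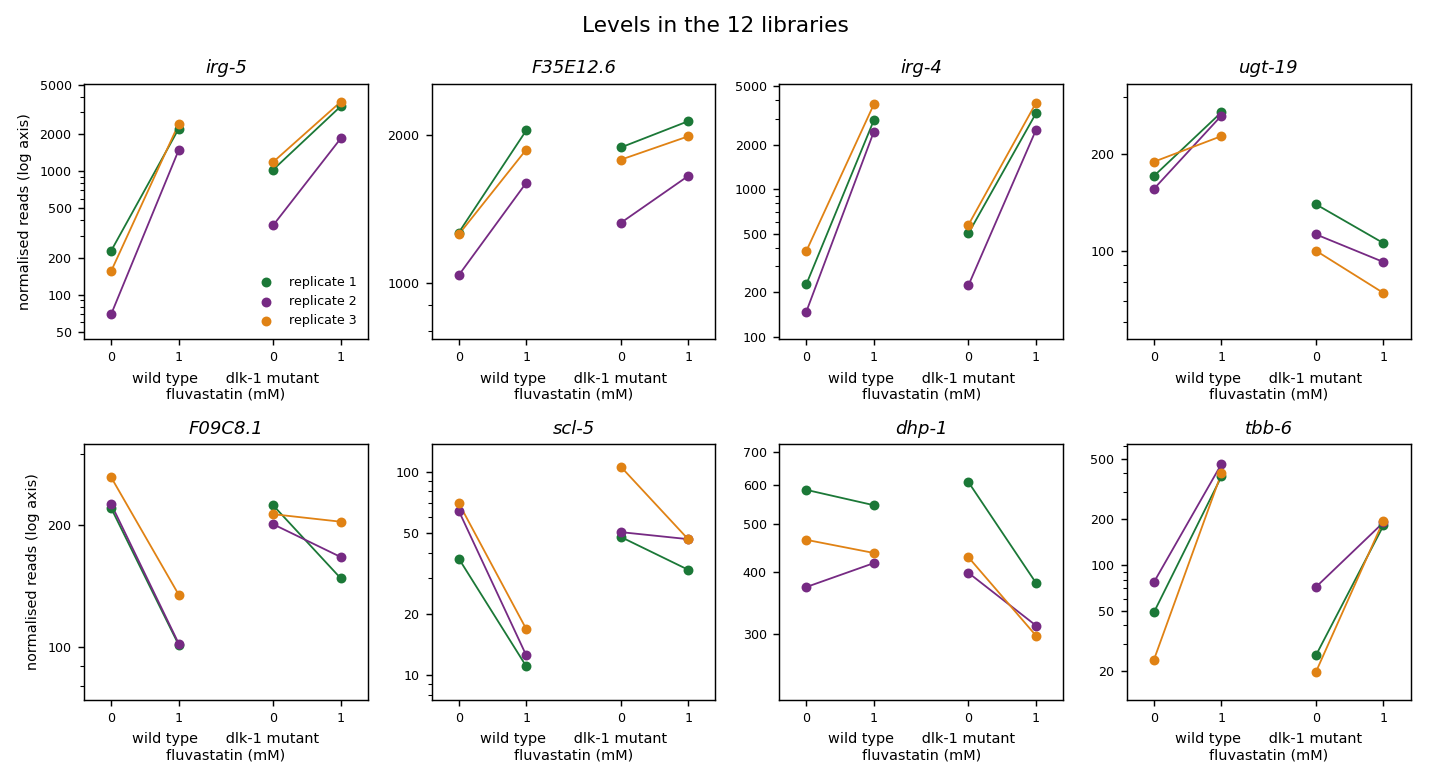
Normalised reads (log axis) of 8 genes in the 12 libraries, by genotype and fluvastatin concentration (mM); colours are replicate numbers and lines join libraries of the same number. For irg-5 and F35E12.6 the control groups do not overlap and the treated groups do, while for tbb-6 and scl-5 the treated groups do not overlap.

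The PMK-1 dependent immune effectors as a list had 19 of 23 members with a difference below 0 and 4 above it, against 8245 of 15529 genes below 0 in all. The median was -0.24 (-0.24, -0.17 and -0.06 in replicates 1, 2 and 3), against -0.01 over all genes tested. An unadjusted p under 0.05 was reached by 9 members below 0 and 0 above it, where the share over all genes was 1.07% for lower differences. Most members, 17 of 23, had a called averaged response, and raised genes reached this threshold with a smaller mutant response more often than all genes. It was 53 of the 923 raised genes and 22 of the 270 raised at least 2-fold. The 9 became 1 without the block, 5 with DESeq2 and 3 without the libraries of replicate 1. The count was 4 without replicate 1 of the wild-type or of the mutant controls or replicate 2 of the treated mutant. It was 5 without replicate 2 or 3 of treated wild type, or replicate 1 or 3 of the treated mutant. Some of these genes were known to differ when the list was drawn up, so the count describes the list and is not separate support.

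irg-4 (F08G5.6), another infection response gene, went from 227, 148 and 381 to 2927, 2451 and 3753 normalised reads in wild type and from 501, 223 and 572 to 3252, 2508 and 3825 in the mutant. Both the control and the treated groups of the genotypes overlapped, but within each replicate number the mutant was the higher at both doses. The responses of 3.67 and 2.97 both passed, and the difference was -0.70 ± 0.27 (95% interval -1.33 to -0.07). The P-type ATPase gene catp-3 had a difference of the same size, -0.70 ± 0.26, with responses of 1.31 and 0.61.

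lys-2, a lysozyme gene, had control values of 479, 436 and 445 (wild type) and 548, 466 and 515 (mutant), and treated values of 887, 804 and 947 against 856, 628 and 848. Both pairs of groups overlapped, but in each replicate the mutant was the higher among controls and the lower among treated libraries. Its wild-type response was 0.95 and its mutant response 0.60, a difference of -0.35 ± 0.11. C17H12.8 differed by -0.36 ± 0.14, and its control level was higher in the mutant by 0.62 log2 units (adjusted p = 0.026). The other members with an unadjusted p under 0.05 were the lectin gene clec-67 (-0.42), K08D8.5 (-0.40), irg-8 (ZK6.11, -0.19) and cld-9, given above with its neighbours.

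irg-6 (C32H11.1), with responses of 7.32 and 7.70, had a difference on the other side of 0. It went from 3.48, 7.23 and 22.5 to 1493, 1165 and 2020 in wild type and from 4.07, 2.86 and 16.3 to 1486, 1260 and 1620 in the mutant. The groups overlapped at both doses. Its difference was 0.38 ± 0.64, and the interval of -1.12 to 1.89 held a difference of 2-fold in either direction.

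A list of 11 genes of the PMK-1 cascade and its regulators had 0 with an unadjusted p under 0.05 and 8 above 0. It held rgef-1, a neuronal exchange factor gene that is no member of the cascade, and 7 of the other 10 lay above 0. pmk-1 differed by -0.10 (95% interval -0.36 to 0.16), sek-1 by 0.00 (-0.24 to 0.24), nsy-1 by 0.06 (-0.24 to 0.36) and tir-1 by -0.01 (-0.59 to 0.58). vhp-1, which encodes a MAP kinase phosphatase, responded by 0.48 in wild type and 0.51 in the mutant, and both passed. A list drawn up for infection responses that do not need PMK-1 had 8 of 9 members below 0 (53.1% over all genes). It was mixed, as it also held the heat shock gene hsp-16.2, pals-22 and the transcription factor genes zip-2 and cebp-2. In this list 0 members had an unadjusted p under 0.05, and the median of -0.19 is the value of hsp-16.2. That median was -0.55, -0.28 and 0.05 in replicates 1, 2 and 3, so replicate 3 lay on the other side of 0. The acyltransferase gene oac-6 had the lowest p among them, at -0.83 ± 0.39, and its wild-type response of 2.94 and its mutant response both passed.

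**Figure D3:**
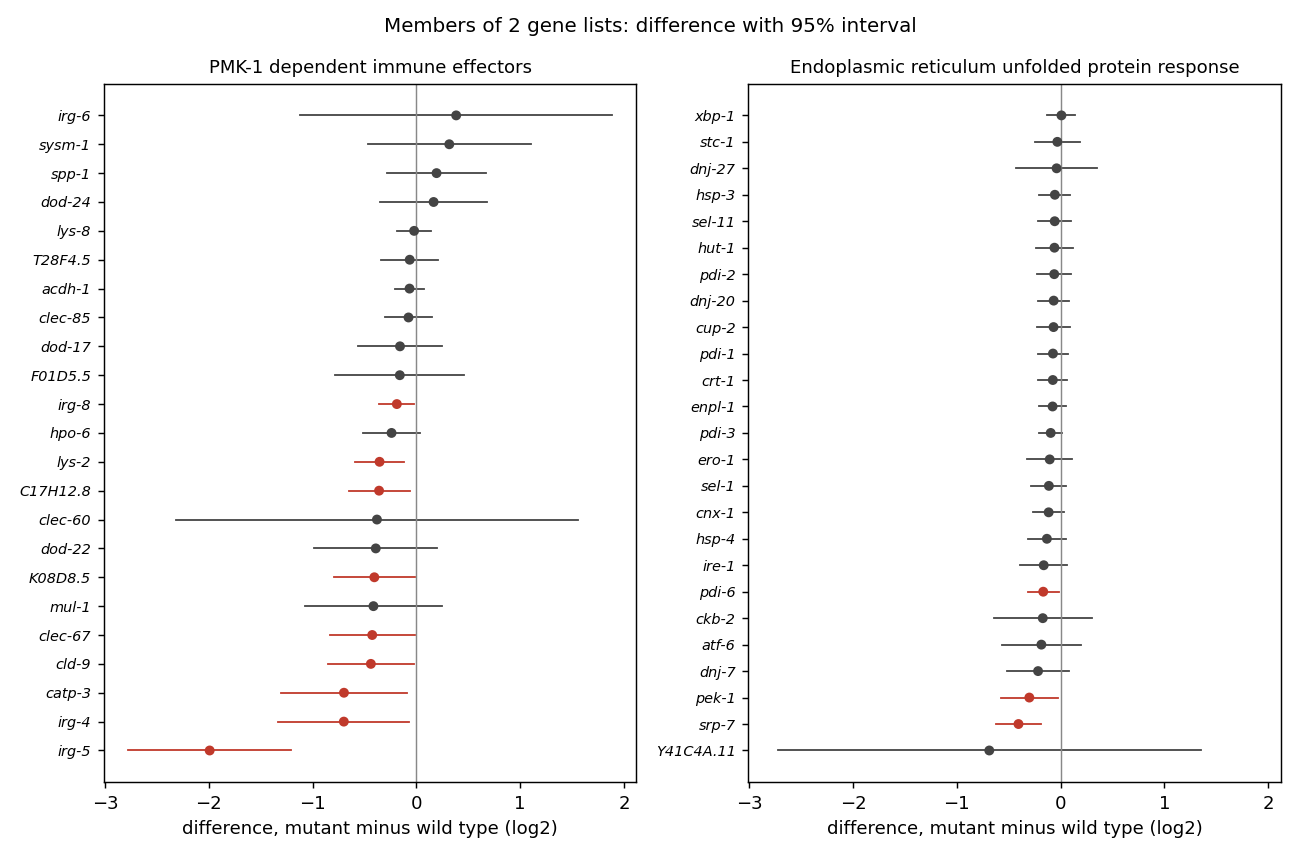
Difference of responses (log2, mutant minus wild type) with its 95% interval for the 23 PMK-1 dependent immune effectors on the left and the 25 genes of the endoplasmic reticulum list on the right; red marks an unadjusted p under 0.05. In both lists most genes lie below 0, and the interval of irg-5 lies farthest from it.

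A list of 14 genes of stress kinase signalling had 7 differences above 0 and 7 below it, with 0 unadjusted p under 0.05 and a median of -0.02. It held the JNK-like pathway genes mlk-1, mek-1, kgb-1, svh-1 and svh-2 and the target gene tbb-6 beside 8 genes of the DLK-1 cascade and its regulators. Of these 8, 5 lay above 0 and 3 below it, from -0.17 to 0.19, with a median of 0.03. The beta-tubulin gene tbb-6, which PMK-3 is known to regulate, went from 48.7, 76.9 and 23.7 to 381, 460 and 401 in wild type. In the mutant it went from 25.4, 71.4 and 19.8 to 182, 190 and 195. The treated mutant libraries all lay below the treated wild-type libraries, and the controls overlapped, with the mutant the lower in each replicate. The gap between treated groups, -1.12 log2 units, did not pass (adjusted p = 0.442). Both responses passed, at 3.18 and 2.48, and the difference of -0.70 ± 0.51 had an interval of -1.88 to 0.48, with -0.15, -1.17 and -0.78 in replicates 1, 2 and 3.

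cebp-1 (D1005.3) responded by 0.55 in each genotype, with a difference of 0.01 (95% interval -0.45 to 0.46). dlk-1 responded by 0.48 in wild type and 0.59 in the mutant, a difference of 0.11 (-0.20 to 0.42). pmk-3 differed by 0.19 (-0.19 to 0.58), mkk-4 by -0.09 (-0.44 to 0.27), and the ubiquitin ligase gene rpm-1, whose product lowers DLK-1, by 0.05 (-0.61 to 0.70). kgb-1, of the JNK-like pathway, had the lowest p of the 14 genes, with a difference of -0.22 ± 0.11 (unadjusted p = 0.0618). svh-1 had the largest difference in size, -1.05 ± 0.53 (limma, unadjusted p = 0.0703), at a mean of only 8.82 normalised reads.

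Beyond these pathways, the 20 genes of lowest p with a mean of at least 20 held 9 below 0 and 11 above it, each with one sign in all 3 replicates. A low p in the blocked fit favours replicates that agree, so the shared sign follows largely from the choice of these 20. ugt-19, which encodes a UDP-glucuronosyltransferase, an enzyme that joins sugars to lipophilic compounds, stood second. It went from 170, 156 and 189 to 269, 262 and 227 in wild type and from 139, 112 and 99.99 to 106, 92.3 and 73.9 in the mutant. All mutant libraries lay below all wild-type libraries, and the direction of the response was opposite in every replicate, as it was for 297 of the 15529 genes (1.91%). Its response of 0.56 passed in wild type (adjusted p = 0.0174). The mutant response of -0.37 did not, and the difference was -0.93 ± 0.19 (unadjusted p = 0.000221). With the drug its level in the mutant was lower by 1.48 log2 units (adjusted p = 0.000477).

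F09C8.1 was lowered in wild type, from 220, 225 and 262 to 101, 102 and 135. In the mutant it went from 224, 201 and 213 to 148, 167 and 204. The treated mutant libraries all lay above the treated wild-type libraries. The wild-type response (-1.07) passed and the mutant one (-0.31) did not, a difference of 0.76 ± 0.15 (unadjusted p = 0.000256).

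scl-5 and scl-3, neighbours on chromosome IV (13064014 to 13065159 and 13059584 to 13060695) that encode SCP-like extracellular proteins, had differences of the same sign. scl-5 went from 37.4, 64.2 and 70.02 to 11.04, 12.5 and 16.8 in wild type and from 47.8, 50.5 and 106 to 32.9, 46.6 and 46.5 in the mutant. The treated mutant libraries again lay wholly above the treated wild-type ones. The responses were -1.98 and -0.60, a difference of 1.38 ± 0.31, and only the wild-type one passed. scl-3 responded by -1.02 and -0.38, with a difference of 0.64 ± 0.18.

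dhp-1, a dihydropyrimidinase gene, had a response that passed in the mutant and not in wild type. It went from 587, 373 and 465 to 547, 417 and 438 in wild type and from 609, 399 and 429 to 381, 312 and 298 in the mutant. The treated mutant libraries lay below all other libraries except wild-type control replicate 2, which stood under mutant replicate 1. The wild-type response was -0.01 and the mutant one -0.52 (adjusted p = 0.00119), a difference of -0.51 ± 0.12.

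Others of these 20 genes had smaller or less precise differences. srp-7, a serpin gene, responded by 0.79 and 0.39 (both passed), with a difference of -0.41 ± 0.10. Y54G2A.18, which overlaps dib-1, responded by 0.46 and 0.08 (-0.38 ± 0.09), and ZK1055.7 by 0.66 and 0.20 (-0.46 ± 0.13). gnrr-4, which encodes a receptor related to the gonadotropin-releasing hormone receptor, went from 85.2, 59.7 and 70.02 to 58.0, 40.6 and 57.2 in wild type and from 44.7, 42.8 and 47.7 to 65.0, 64.3 and 59.2 in the mutant. The mutant controls lay below all wild-type controls, and neither response passed, at -0.46 and 0.47 (difference 0.93 ± 0.23).

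The zinc finger factor gene ref-2 had the largest positive difference of the 20, 1.64 ± 0.45, with 2.35, 0.57 and 2.01 in the 3 replicates. Levels were 12.2, 94.9 and 9.49 in wild-type controls, 8.28, 87.4 and 4.49 in treated wild type, 3.05, 102 and 3.49 in mutant controls and 13.5, 139.8 and 8.45 in treated mutants. Replicate 2 stood far above the others in every group. The alpha-catulin gene ctn-1 (0.39 ± 0.11), the potassium channel gene shw-1 (F14F11.1, 0.41 ± 0.12), Y56A3A.6 (0.41 ± 0.11), F41G3.10 (0.45 ± 0.12, overlapping F41G3.5), T14B1.1 (0.59 ± 0.15) and ZK354.7 (0.59 ± 0.18) also lay above 0. skr-4, a gene related to Skp1 of ubiquitin ligases, lay below 0 (-0.58 ± 0.17), as did F54D10.3 (-0.98 ± 0.28).

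**Figure D4:**
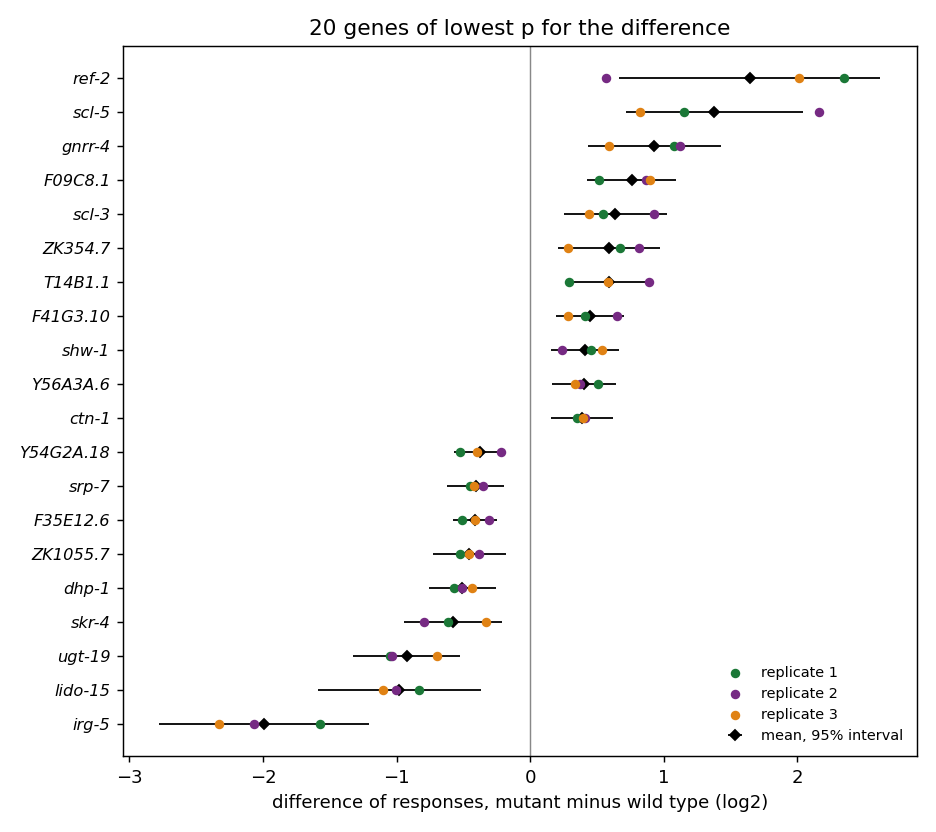
Difference of responses (log2, mutant minus wild type) for the 20 genes of lowest p with a mean of at least 20 normalised reads; coloured points are replicates 1, 2 and 3 and black diamonds the mean with its 95% interval. Every gene has one sign in all 3 replicates, which the choice by low p favours. The differences run from -1.99 for irg-5 to 1.64 for ref-2, and 0 passed adjustment in limma.

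Among the detoxification families, cytochrome P450 genes had the median farthest from that of all genes (-0.01). Of 62 cytochrome P450 genes, which oxidise lipophilic compounds, 41 lay below 0 (53.1% over all genes) and 21 above it, with a median of -0.10. That median was -0.05, -0.02 and -0.23 in replicates 1, 2 and 3, so it came mainly from replicate 3. An unadjusted p under 0.05 was reached by 4 below and 1 above, where the shares over all genes were 1.07% and 1.42%. cyp-35A3, whose reads may be shared with close paralogs, responded by 7.25 in wild type, the mutant response also passed, and its difference of -0.24 ± 0.41 came to 0.15, 0.48 and -1.36 in replicates 1, 2 and 3.

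cyp-35B2 had the lowest p of the family. It stood at 0.87, 0 and 1.19 in wild-type and 3.05, 0 and 2.33 in mutant controls, and at 126, 38.5 and 109.96 in treated wild type and 91.2, 14.9 and 47.5 in treated mutants. In each replicate the treated mutant was the lower, but the treated groups overlapped. The difference was -1.56 ± 0.49 on the log2(value + 1) scale, on which values near 0 in the controls depend on the pseudocount. The other P450 genes with an unadjusted p under 0.05 were cyp-14A5 (-0.40), cyp-25A2 (-0.36), cyp-43A1 (-0.23, overlapping C41G11.1) and cyp-37B1 (1.01, overlapping F28G4.2).

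The 61 UDP-glucuronosyltransferase genes had a median of -0.04, with 3 below and 1 above 0 at an unadjusted p under 0.05. Besides ugt-19 these were ugt-65 (-0.66 ± 0.21), ugt-12 (-0.25 ± 0.11) and ugt-30 (0.64 ± 0.26). ugt-65 was lowered in the mutant by 0.95 log2 units (adjusted p = 0.000871), and its wild-type response of -0.30 did not pass. Of 40 glutathione S-transferase genes 1 reached an unadjusted p under 0.05, gsto-3 (0.39 ± 0.14), with a wild-type response of 0.16 and a mutant response of 0.55, of which the latter passed. Of 49 ABC transporter genes 2 did so above 0 and 1 below. They included the P-glycoprotein genes pgp-11 (0.58 ± 0.24) and pgp-5 (-0.59 ± 0.25), while pgp-1, with responses of 2.79 and 2.56, had a difference of -0.23 (-0.96 to 0.50). In the metal response list cdr-4, which cadmium induces, had 286, 204 and 299 in wild-type and 332, 234 and 238 in mutant controls. Treated libraries had 1142, 1046 and 1403 (wild type) and 859, 701 and 1022 (mutant). The treated mutant libraries lay below all treated wild-type libraries, and the controls overlapped. The difference was -0.51 ± 0.18 between responses of 2.19 and 1.68.

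sdz-35 had the most negative difference among all genes with a called averaged response, from low levels. Its controls held 0, 0.904 and 2.37 normalised reads (wild type) and 2.03, 1.90 and 1.16 (mutant). Treated libraries held 48.8, 53.1 and 43.8 (wild type) and 17.7, 13.05 and 9.51 (mutant), so that the treated groups did not overlap. Its difference was -2.34 ± 0.65 (unadjusted p = 0.00301).

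The endoplasmic reticulum unfolded protein response restores protein folding in that compartment. 24 of 25 members of its list lay below 0 (53.1% over all genes), with a median of -0.10 and medians of -0.07, -0.08 and -0.12 in replicates 1, 2 and 3. 3 had an unadjusted p under 0.05, all lower (1.07% over all genes): srp-7, pdi-6 (tag-320, a protein disulfide isomerase gene, -0.17 ± 0.07) and pek-1 (a stress kinase gene, -0.30 ± 0.13). Among the 923 genes raised on average, 53 had a smaller mutant response with an unadjusted p under 0.05. The BiP gene hsp-4 went from 5381, 5348 and 5540 to 8334, 7407 and 8465 in wild type and from 5448, 6235 and 6236 to 7490, 7898 and 8909 in the mutant. The treated groups overlapped. Its responses of 0.57 and 0.44 passed and the difference was -0.13 ± 0.08 (95% interval -0.32 to 0.05). xbp-1, the transcription factor of the response, differed by 0.01 (-0.13 to 0.14), and the choline kinase gene ckb-2 by -0.17 ± 0.21 between responses of 1.62 and 1.45. Of the 17 members with a called averaged response, 16 had the smaller response in the mutant, against 1099 of 1947 over all responding genes. A lean below 0 was not particular to this list, but it is not a smaller response where the drug lowers genes. Of 64 cytosolic ribosomal protein genes with a called averaged response, 14 had the smaller response in the mutant. Below 0 lay 17 of 20 oocyte and eggshell, 17 of 19 phosphatidylcholine and one-carbon and 62 of 78 cytosolic ribosomal protein genes. So did 13 of 16 cytosolic heat shock and 12 of 15 mitochondrial unfolded protein response genes. In replicate 3 the medians of the ribosomal protein, heat shock and mitochondrial lists were 0.06, 0.05 and 0.01, on the other side of 0. All 6 vitellogenin genes lay above 0, but 0 of the 6 had one sign in all replicates. Their medians were -0.002, 0.32 and -0.14 in replicates 1, 2 and 3.

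Mitochondrial and cytosolic stress genes gave 0 unadjusted p under 0.05. The 15 genes of the mitochondrial unfolded protein response had a median of -0.04, with hsp-6 at -0.06 (-0.25 to 0.12), hsp-60 at 0.04 (-0.11 to 0.19) and atfs-1 (ZC376.7) at -0.04 (-0.19 to 0.12). The 16 cytosolic heat shock genes had a median of -0.18, but -0.53, -0.03 and 0.05 in replicates 1, 2 and 3, so this value came mainly from replicate 1. hsp-110 (C30C11.4) had the lowest p of that list, with a difference of -0.17 ± 0.11 and -0.37, -0.08 and -0.06 in the replicates. The 17 oxidative stress genes had a median of -0.04, and the thioredoxin gene trx-3 led them at 0.62 ± 0.30.

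Differences in the pathway that the drug blocks lay within narrow limits. A list of 13 genes held 10 taken as mevalonate and prenyl pathway genes, the regulators sbp-1 and mdt-15, and the general transcription factor gene gtf-2E2, which does not belong to the pathway. Of the 13, 0 had an unadjusted p under 0.05. The differences of the 10 ran from -0.11 to 0.12, with 8 below 0 and a median of -0.06. The gene of HMG-CoA reductase itself, hmgr-1 (F08F8.2), had 791, 896 and 595 in wild-type and 803, 945 and 658 in mutant controls. Treated libraries had 802, 902 and 702 (wild type) and 830, 905 and 711 (mutant), so all 4 groups overlapped, with the mutant the higher in each replicate at both doses. Its difference was -0.06 (-0.25 to 0.13), and that of hmgs-1 (F25B4.6), the synthase that precedes it, was -0.07 (-0.32 to 0.18). sbp-1, the sterol regulatory element binding factor, had a wild-type response of 0.21 and a called mutant response of 0.38 (adjusted p = 0.018), with a difference of 0.18 (-0.09 to 0.45).

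In lipid metabolism, 3 of 16 desaturase and elongase genes had an unadjusted p under 0.05. All were elongases with a difference below 0 (1.07% over all genes for lower differences). For elo-6 this was a larger fall in the mutant, not a smaller response. Of the 6 list members with a called averaged response, 1 had the smaller response in the mutant. elo-6 and elo-5, which make monomethyl branched-chain fatty acids, differed by -0.23 ± 0.08 and -0.23 ± 0.10 (elo-5 overlaps F41H10.3), and elo-2, which elongates palmitate, by -0.18 ± 0.07. elo-6 went from 2940, 2924 and 3386 to 2519, 2649 and 2497 in wild type and from 2844, 2567 and 2839 to 1940, 1919 and 1986 in the mutant. The treated mutant libraries lay below all others. Both responses of elo-6 passed, at -0.27 and -0.50, and its treated level was lower in the mutant by 0.39 (adjusted p = 0.0218). The stearoyl-CoA desaturase genes fat-6 and fat-7 differed by -0.14 (-0.38 to 0.10) and -0.45 (-1.63 to 0.73).

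Among 80 lipase and beta-oxidation genes the median was -0.01, with 2 above and 1 below 0 at an unadjusted p under 0.05. The lysosomal lipase gene lipl-3 (overlapping srw-107) led them at 2.69 ± 0.84, on low levels. It stood at 32.2, 10.9 and 8.31 in wild-type controls and 4.60, 1.04 and 1.12 in treated wild type, against 23.4, 4.76 and 9.30 in mutant controls and 9.29, 5.59 and 37.0 in treated mutants. Treated mutants lay above treated wild type, with replicate 3 the highest of all 12 libraries. The acyl-CoA synthetase gene acs-1 was lowered in the mutant by 0.21 (adjusted p = 0.017) and stood at -0.01 in wild type, a difference of -0.20 ± 0.07. The 19 phosphatidylcholine and one-carbon genes had a median of -0.04, and the 6 vitellogenin genes, which encode yolk proteins, ran from 0.04 to 0.09. Only in replicate 2 was the vitellogenin median above 0, at 0.32, against -0.002 and -0.14 in replicates 1 and 3.

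C-type lectin genes had a median of 0.07, with 73 of 129 above 0. An unadjusted p under 0.05 was reached by 4 above and 2 below. clec-41 had the lowest p, with responses of 0.42 and 0.13 and a difference of -0.28 ± 0.09. clec-28, at a mean of few reads, stood at 1.97 ± 0.69. Of the 50 lectin genes with a called averaged response, 40 had the smaller response in the mutant, with a median of -0.18 on the scale on which values below 0 mark that, against 1099 of 1947 (56.4%) over all responding genes. Of 9 lysozyme genes only lys-2 reached an unadjusted p under 0.05, and of 56 saposin-like and antimicrobial peptide genes 1 above and 2 below did so, led by abf-6 (0.65 ± 0.22).

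pud-4 (F15E11.12), a small-protein gene strongly lowered by the drug, went from 79.2, 202 and 262 to 0.92, 6.25 and 1.12 in wild type. In the mutant it went from 104, 59.0 and 177 to 2.53, 10.3 and 9.51. The groups of the genotypes overlapped at both doses, and among treated libraries the mutant was the higher in each replicate. Both responses passed, at -5.71 and -3.79, with a difference of 1.92 ± 0.79 and 0.49, 2.39 and 2.87 in the 3 replicates. As for cyp-35B2, values near 0, here in treated libraries, depend on the pseudocount. pud-3 (F15E11.15) responded by -5.73 and -4.78, a difference of 0.94 ± 0.51.

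Of 371 F-box and ubiquitin ligase genes, 11 above and 6 below 0 had an unadjusted p under 0.05, with a median of 0.01. cul-6, a cullin gene induced in the intracellular pathogen response, went from 61.8, 66.0 and 54.6 to 104, 103 and 102 in wild type and from 71.1, 54.3 and 51.2 to 70.9, 48.5 and 64.4 in the mutant. In wild type the groups did not overlap, and in the mutant they did. Its wild-type response (0.76) passed, the mutant one (0.05) did not, and the difference was -0.70 ± 0.23 (unadjusted p = 0.0089). fbxa-90 differed by -1.13 ± 0.37.

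Cuticle collagens, which turn over with each moult, had 106 of 162 differences above 0 (46.9% over all genes) and a median of 0.07, with 5 above and 0 below at an unadjusted p under 0.05. Fluvastatin lowered 32 of them in wild type and 25 in the mutant, where the shares over all genes were 3.25% and 3.09%. col-156, which overlaps mig-17, went from 540, 49.7 and 256 to 214, 7.29 and 46.004 in wild type and from 493, 68.6 and 186 to 309, 42.9 and 79.2 in the mutant, with replicate 2 lowest in every group. Its difference was 1.28 ± 0.54, that of col-152 was 2.19 ± 0.73, and that of col-95 was 0.40 ± 0.16. Among 114 moulting and hedgehog-related genes 4 above and 0 below reached an unadjusted p under 0.05. The part that the low level in replicate 2 had in the difference of col-156 was not tested.

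Marker lists of cell types gave the following values. The 33 neuronal markers had 23 differences above 0 (46.9% over all genes) and a median of 0.11 (0.11, 0.20 and -0.01 in replicates 1, 2 and 3). That median is the value of dlk-1, which the list held, and without dlk-1 22 of 32 lay above 0 with a median of 0.11. The GABA transporter gene unc-47 led them at 1.34 ± 0.42, from 28.7, 23.5 and 11.9 to 11.04, 12.5 and 8.98 in wild type and from 17.28, 12.4 and 11.6 to 21.1, 16.8 and 21.1 in the mutant. Every level of unc-47 was under 30 normalised reads. The 20 muscle, 19 intestinal and 18 epidermal markers had medians of -0.01, -0.03 and 0.02, and 0 members of these 3 lists had an unadjusted p under 0.05. The 20 oocyte and eggshell genes had a median of -0.05, and the 155 sperm and nematode-specific peptide genes one of -0.04. Of 29 genes of the latter list with a called averaged response 25 had the smaller response in the mutant, against 1099 of 1947 (56.4%) over all responding genes.

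**Figure D5:**
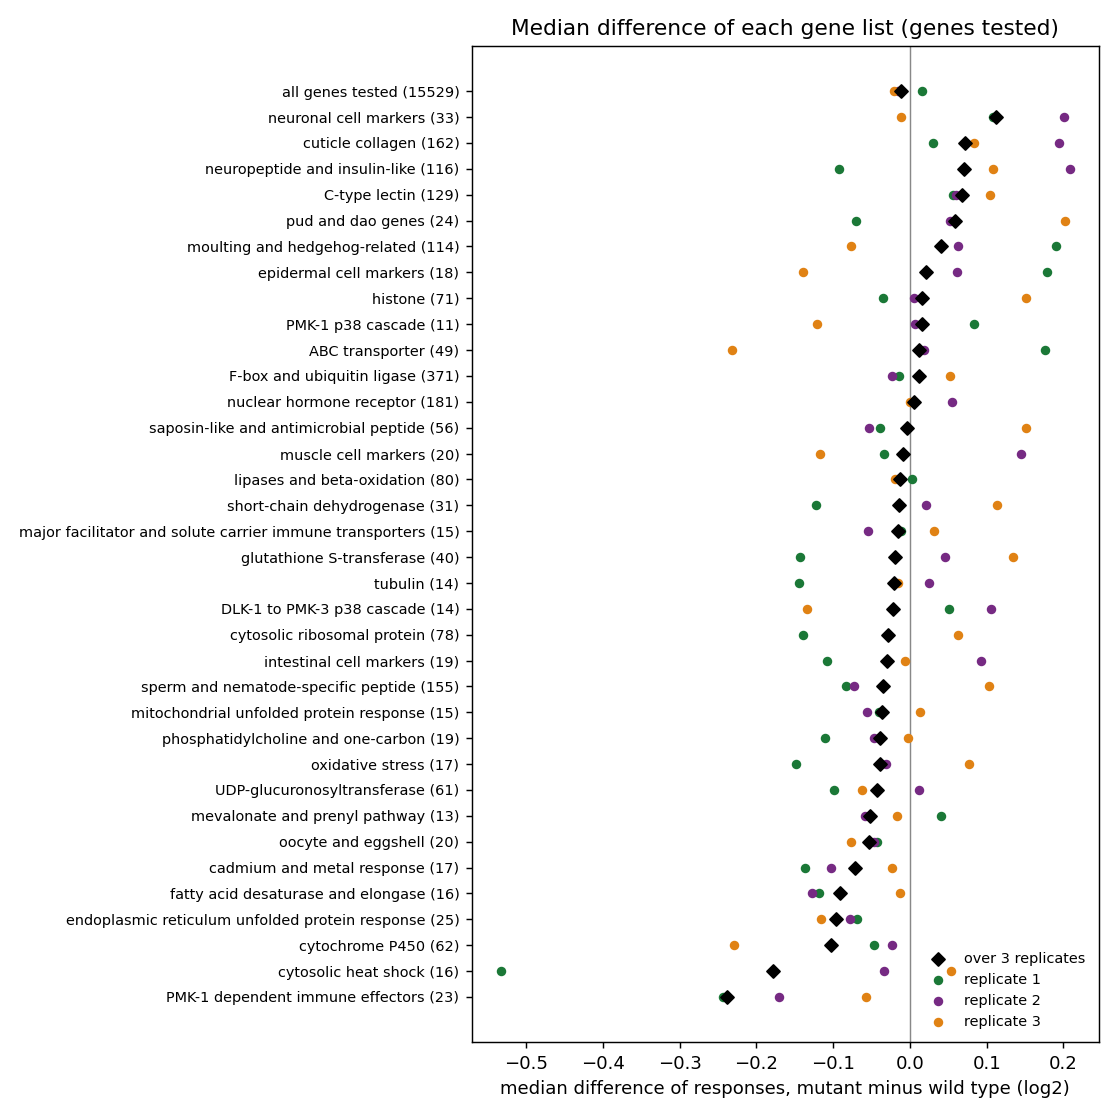
Median difference of responses (log2, mutant minus wild type) of gene lists with at least 10 genes tested, over the 3 replicates (diamonds) and in each replicate (coloured points), with the number of genes tested in brackets. The medians lie between -0.24 and 0.11, and for most lists the 3 replicates fall on both sides of 0.

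Further lists are given here beside the genome-wide median of -0.01. The 181 nuclear hormone receptor genes had a median of 0.01 with 3 above and 4 below at an unadjusted p under 0.05, led by nhr-17 (-0.33 ± 0.11, overlapping nlp-76). The 116 neuropeptide and insulin-like genes had a median of 0.07 (-0.09, 0.21 and 0.11 in replicates 1, 2 and 3), with nlp-6 at -0.28 ± 0.10. The 78 cytosolic ribosomal protein genes ran from -0.29 to 0.04 with a median of -0.03. The 71 histone genes had a median of 0.02, with his-24 at 0.40 ± 0.17, and the 31 short-chain dehydrogenase genes a median of -0.01, with dhs-15 at 1.58 ± 0.60.

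Genes that differed between genotypes at one dose were set beside the difference. Without the drug 15 genes passed between mutant and wild type (0.0966%), 8 up (0.0515%) and 7 down (0.0451%), and with it 42 did (0.27%), 15 up (0.0966%) and 27 down (0.174%). Without the block 0 passed at either dose. The counts fell to 0 without wild-type control replicate 2 and to 1 without treated mutant replicate 2. For some the gap passed at both doses. fat-5, a desaturase gene that overlaps twk-42, was lower in the mutant by 0.88 without and 0.76 with the drug, and its responses of 0.69 and 0.80 differed by 0.12 (-0.19 to 0.42). lfe-2, an inositol trisphosphate kinase gene, was lower by 0.79 and 0.63, with a difference of 0.16 (-0.13 to 0.45). T01B6.1 was lower by 1.89 and 1.69, with a difference of 0.20 (-0.62 to 1.01), and rpl-30 was higher by 0.41 and 0.42, with a difference of 0.01 (-0.15 to 0.18). For irg-5 and F35E12.6 the gap passed without the drug and not with it, and for ugt-19, F09C8.1, scl-5, dhp-1 and ZK1055.7 it passed with the drug and not without it. For these 7 genes that pattern shares its libraries with the difference described above.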

How the data were processed

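Single-end 50 bp reads came from unstranded TruSeq libraries, per the labels' protocols. The submitters' processing notes name Bowtie and DESeq2 but give no version. Neither the genome build nor the annotation is given in the sources used here. The authors deposited a normalised signal per transcript model for 34873 models. Its values were whole multiples of 1 step per library (100% within 0.01 read), which gave back the read numbers, and 0 value columns went unused. The model with the highest mean was kept for each of 30301 sequence names, of which 29778 matched WBcel235 (Ensembl). Values of 287 genes lay within 5% of those of some other gene, and these are uncertain. sek-1, nsy-1, rpm-1, sbp-1, acs-1, his-24, trx-3 and ctn-1 overlap another gene.

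Values were analysed as log2(value + 1) for 15529 genes with at least 10 in at least 3 libraries. On this scale a fold change understates that of low genes. limma 3.58.1 (trend, robust, R 4.3.3) fitted 4 groups plus the replicate number as a block. The block was chosen because the difference is taken within replicate numbers. In this balanced layout it alters the error of a difference and not its estimate. Tests were two-sided with Benjamini-Hochberg adjustment over all genes. Every adjusted p is from limma unless another tool is named. The labels do not say what a replicate number marks. Libraries of the same number deviated together from their group means in all 18 pairs (r from 0.555 to 0.887), so numbers were taken as pairing the samples. No replicate pair agreed within sampling noise (chi-square per degree of freedom at least 8.78). edgeR 4.0.16, DESeq2 1.42.0 and limma-voom on recovered reads were alternatives, each tested on simulated data like the main fit.

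The members and the 38 gene lists were chosen with earlier results of these data known. Some lists are broader than their names in the plot of list medians, as stated beside their counts. After values were seen, 1 list with a single matched gene was dropped and another was renamed. Genes were named by a rule: a panel of p38, statin and stress genes, the 20 lowest p with a mean of at least 20, the lowest p in each list, and the 10 lowest p in each direction among genes with a called averaged response. Further members with an unadjusted p under 0.05, neighbours of irg-5, and genes that differed between genotypes were chosen after their values were seen.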

Additional observations from a re-analysis of the deposited data

Results flagged for a closer look

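In 15 of the 87 named genes the responses of the genotypes ran in opposite directions in every replicate, as they did in 297 of 15529 genes (1.91%). Many named genes were chosen by a low p of this same difference, which favours opposite responses. The 2 shares therefore cannot be compared. The difference was tested in limma, and in 0 of the 15 did it pass adjustment. 6 were lower in the mutant: ugt-19 (log2 difference -0.93), F54D10.3 (-0.98), the Skp1-related gene skr-4 (-0.58), nhr-17 (-0.33), the neuropeptide gene nlp-6 (-0.28) and the chaperone gene hsp-110 (C30C11.4, -0.17). The others were higher in the mutant: gnrr-4 (0.93), T14B1.1 (0.59), Y56A3A.6 (0.41), ctn-1 (0.39), ref-2 (1.64), shw-1 (F14F11.1, 0.41), ZK354.7 (0.59), unc-47 (1.34) and abf-6 (0.65). Of the single responses behind them, the wild-type responses of ugt-19 (0.56), F54D10.3 (0.82), T14B1.1 (-0.40) and shw-1 (-0.31) passed, as did the mutant response of Y56A3A.6 (0.32).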

How the results depend on the processing

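The count of called differences was 0 under every alternative run except DESeq2 and limma on the within-replicate differences, each of which called 1 gene, irg-5. DESeq2 therefore gave 1 wild-type call with a called difference. Leaving out libraries gave 0 called differences throughout, and 253 to 546 genes with an unadjusted p under 0.05.

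Without the block 282 genes passed in wild type, 214 in the mutant, 511 on average and 0 between genotypes at either dose, and 1 PMK-1 effector had an unadjusted p under 0.05 below 0. edgeR without the block, added after seeing the data, gave 270, 203, 515, 0, 0 and 1. DESeq2 gave 25 and 72 calls between genotypes without and with the drug and 5 effectors. limma without trend and robust options gave 649 mutant calls, 2 and 0 between genotypes and 5 effectors. Calls between genotypes with the drug were 77 with limma-voom, 25 at a pseudocount of 0.5, 26 without a filter and 19 at a minimum of 50, and calls without the drug were 26 over transcript models. Leaving out libraries gave 598 to 1222 wild-type, 563 to 999 mutant and 1162 to 2038 averaged calls, 0 to 22 and 1 to 69 between genotypes, 3 to 8 effectors, and 54.2 to 72.8% of raised genes with the smaller mutant response.

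Of 2341 recomputed differences of 87 named genes 2285 kept their sign, and 56, in 16 genes that were not called, did not. With limma-voom cebp-1 came to -0.019 and tir-1 to 0.0056, and with TMM scaling tir-1 came to 0.00052. Leaving out libraries gave -0.0083 to 0.21 for vit-1, -0.0201 to 0.26 for dlk-1, -0.12 to 0.0014 for hsp-6, -0.53 to 0.0368 for pgp-1, -0.10 to 0.0021 for hmgr-1 and -0.0277 to 0.85 for irg-6. It gave -0.61 to 0.32 for cyp-35A3, -0.19 to 0.0338 for mkk-4, -0.0108 to 0.0876 for hsp-60, -0.0786 to 0.0201 for atfs-1, -0.0756 to 0.29 for nsy-1, -0.0589 to 0.14 for vhp-1, -0.39 to 0.53 for rpm-1, -0.22 to 0.18 for tir-1, -0.22 to 0.17 for cebp-1 and -0.16 to 0.17 for sek-1. The cause of these changes was not tested. Intervals at low counts limit what can be seen there.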
